A study of Mus musculus with 16 samples.

Results

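The platelet-derived growth factor (PDGF) genes, with 4 ligands (Pdgfa, Pdgfb, Pdgfc and Pdgfd) and 2 receptors (Pdgfra and Pdgfrb), were followed in inguinal white adipose tissue (iWAT) of mice that overexpressed a hyaluronan-making or a hyaluronan-degrading enzyme. Members were the rows of the deposited table that carried 1 of these 6 gene names, out of 54532 genes. The study made bulk RNA sequencing libraries of iWAT from male littermates, in experiments begun at 8 to 10 weeks of age, with 4 libraries in each of 4 groups. Has2_TG libraries came from Apn-Has2 mice, which carry Apn-rtTA and TRE-Has2 for hyaluronan synthase 2. PH20_TG libraries came from Apn-PH20 mice, which carry Apn-rtTA and TRE-PH20 for the hyaluronidase encoded by Spam1. The groups labelled Has2_WT and PH20_WT were the Apn-rtTA littermates of each line, so every mouse carried the rtTA transgene, and for 5 days all 4 groups ate chow that held doxycycline at 200 mg/kg. The adiponectin promoter limits rtTA to adipocytes, whereas RNA was taken from the whole depot with all its other cells. The labels do not say that each library came from a separate mouse, and p-values measure the spread between libraries.

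PDGFs are dimeric growth factors. PDGF-A and PDGF-B are secreted in an active or nearly active form, while PDGF-C and PDGF-D carry a CUB domain that extracellular proteases must remove before they can bind a receptor. The receptors are tyrosine kinases: PDGFRα binds PDGF-A, PDGF-B and PDGF-C, and PDGFRβ binds PDGF-B and PDGF-D. In adipose tissue PDGFRα marks fibroblast-like cells that include adipocyte progenitors, PDGFRβ marks pericytes and other perivascular cells, and endothelial PDGF-B recruits pericytes to capillaries.

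Between 14421692 and 26751729 reads fell on genes in a library, and every member was counted in every library, with 194 to 2825 reads. Adipocyte markers were abundant in all 16 libraries, with a summed level of 4050 to 9918 FPKM (fragments per gene length and library size) over 8 genes. Several libraries stood apart. B cell markers summed to 129.8 to 348.9 FPKM in Has2_WT1, Has2_WT2, PH20_WT1 and PH20_WT3 and to at most 6.02 FPKM in the other 12 libraries, so the 4 libraries rich in B cell, T cell and lymph node genes were all controls, and the changes of the members and the counts of the gene lists are also given without them. Skeletal muscle markers summed to 243.5 to 1020 FPKM in PH20_WT and 9.72 to 291.3 FPKM in PH20_TG. In the Has2 study they summed to 24.7 to 114.2 FPKM in Has2_WT. The Has2_TG libraries split, with 400.9 and 856.0 FPKM in Has2_TG1 and Has2_TG2 and 7.92 and 10.1 FPKM in Has2_TG3 and Has2_TG4. As for the targeted genes, Has2 was at 1.86 to 3.24 FPKM in Has2_TG and 0.417 to 0.806 FPKM in Has2_WT, without overlap, while Spam1 had 0, 6, 12 and 5 reads in the libraries labelled PH20_TG1 to PH20_TG4 and 0 reads in the other 12, where a count of 0 allows up to 3 reads. The library labelled PH20_TG1 therefore showed no read of its transgene, and the PH20 changes of the members and list counts are also given without it. Has2 was at 3.32 and 3.26 FPKM in the libraries labelled PH20_TG1 and PH20_TG4, as high as in Has2_TG, against 0.380 and 0.0990 FPKM in PH20_TG2 and PH20_TG3 and 0.330 to 0.897 FPKM in PH20_WT.

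FPKM is a level per length and allows genes to be compared as far as the deposited gene lengths hold. These were 10024 bases for Pdgfra and 3119 to 5478 bases for the other members. Whether they match the transcripts present was not tested. Averaged over the 16 libraries, Pdgfrb had the highest level of the family, 13.4 ± 2.91 FPKM (SD), followed by Pdgfb at 10.4 ± 3.10 FPKM. Pdgfra (7.19 ± 3.88 FPKM) and Pdgfd (7.14 ± 1.82 FPKM) came next and differed by less than their spread, as did Pdgfa (4.95 ± 1.06 FPKM) and Pdgfc (4.89 ± 1.70 FPKM). Pdgfra had the largest spread of the 6, ranging from 1.77 to 15.1 FPKM. This order was not that of every group: in Has2_WT Pdgfra had the lowest mean of the 6, 3.98 FPKM, below Pdgfc (4.52) and Pdgfa (4.86), and in PH20_WT it lay below Pdgfd (6.86 against 8.39 FPKM).

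**Figure D1:**
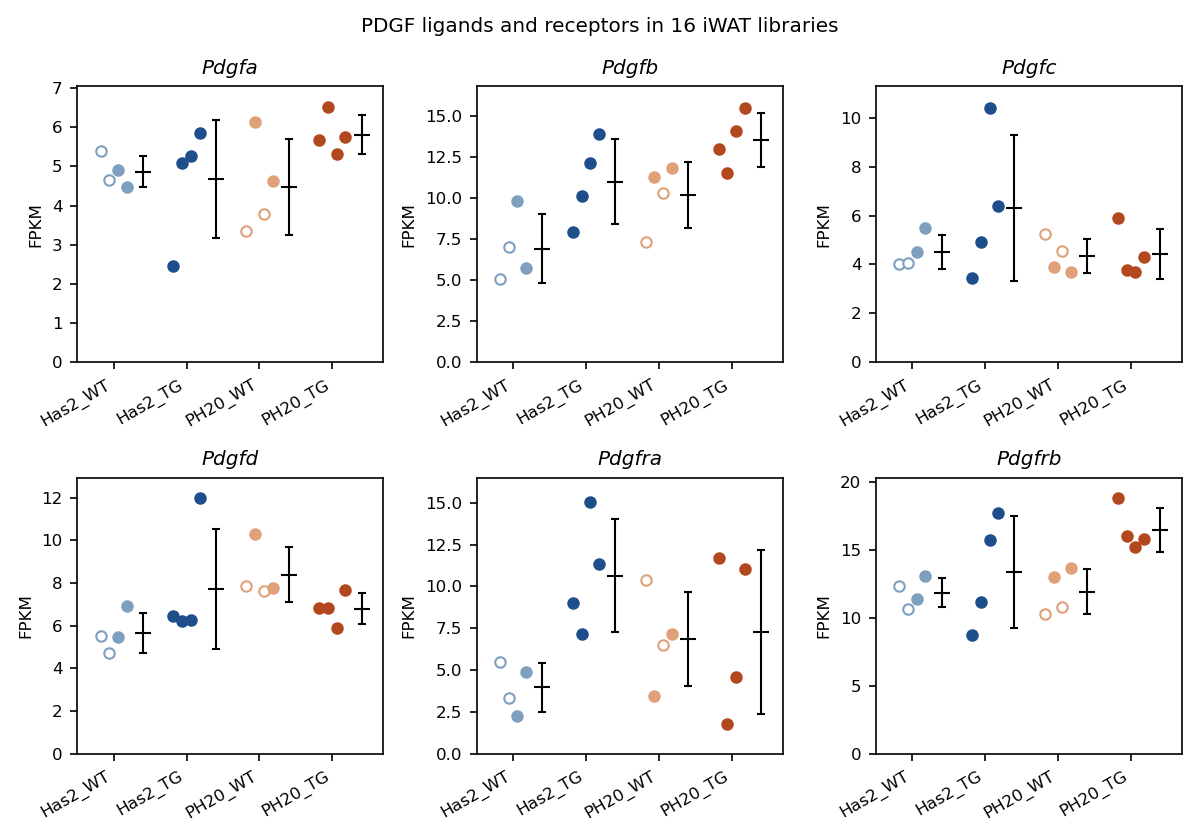
FPKM (y axis, from 0) of the 6 PDGF genes in each library by group (x axis); each point is 1 library, open points are the 4 controls rich in B cell RNA, and black bars give mean and SD of 4 libraries. Pdgfra separated Has2_TG from Has2_WT and Pdgfrb separated PH20_TG from PH20_WT, while the groups overlapped within each study for the 4 ligands.

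The first comparison asked how the family differed between Has2_TG and Has2_WT. Pdgfra and Pdgfb rose, no member fell, and Pdgfa, Pdgfc, Pdgfd and Pdgfrb did not pass the test. Here a change was called where the limma p, unadjusted, was under 0.05, which 10.0% of the 12606 genes tested reached, 6.25% being higher and 3.75% lower in Has2_TG. No member passed Benjamini-Hochberg adjustment over all genes, which 13 genes did, all higher.

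Pdgfra encodes PDGFRα, the receptor of stromal progenitors. Its level was 5.46, 3.32, 2.24 and 4.88 FPKM in Has2_WT1 to Has2_WT4, and 9.03, 7.17, 15.1 and 11.3 FPKM in Has2_TG1 to Has2_TG4. All 4 Has2_TG libraries lay above all 4 Has2_WT libraries, a separation that 6.19% of all genes showed. The change was 1.42 on the log2(FPKM + 0.1) scale (SE 0.32, 95% interval 0.71 to 2.13), or 2.68-fold (1.64 to 4.39), with a limma p of 0.00126 and an adjusted p of 0.105. This fold change stood at the 98.5th percentile of all genes, whose median was -0.03. Without Has2_WT1 and Has2_WT2, the controls rich in B cell RNA, it was 1.60 and still passed.

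Pdgfrb encodes PDGFRβ, the receptor of perivascular cells. It was at 12.4, 10.6, 11.4 and 13 FPKM in Has2_WT and at 8.73, 11.2, 15.7 and 17.8 FPKM in Has2_TG, whose libraries lay on both sides of the controls. The difference of 0.12 (95% interval -0.38 to 0.62) did not pass the test (adjusted p = 0.908). Set against each other within a library, the receptors differed between the groups: the log2 ratio of Pdgfra to Pdgfrb was -1.63 ± 0.49 in Has2_WT and -0.32 ± 0.37 in Has2_TG (SD, n = 4), a difference of 1.30 with no overlap (two-sided exact permutation test, p = 0.0286, the smallest that 4 against 4 libraries can give; 0.171 adjusted over 6 such tests). Pdgfra made up 24.5 ± 6.07% of the summed receptor FPKM in Has2_WT and 44.4 ± 6.32% in Has2_TG.

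Among the ligands, Pdgfb, which encodes the chain that binds both receptors, had 5.07, 7.04, 9.81 and 5.73 FPKM in Has2_WT and 7.91, 10.1, 12.1 and 13.9 FPKM in Has2_TG. The groups overlapped, since Has2_WT3 lay above Has2_TG1. The change of 0.68 (SE 0.25, 95% interval 0.12 to 1.23), or 1.60-fold, had a limma p of 0.0214 and an adjusted p of 0.390. It no longer passed when any of 4 libraries was left out, at 0.55 without Has2_WT1, 0.60 without Has2_WT4, 0.62 without Has2_TG3 and 0.56 without Has2_TG4. Without both controls rich in B cell RNA it was 0.52 and did not pass.

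Pdgfa, a ligand of PDGFRα, was at 4.48 to 5.40 FPKM in Has2_WT and at 2.47, 5.08, 5.28 and 5.86 FPKM in Has2_TG, so that 1 library, Has2_TG1, was low and the other 3 were within or just above the range of the controls. Its difference of -0.12 (95% interval -0.72 to 0.48) did not pass the test (adjusted p = 0.922) and was 0.15 without Has2_TG1. Pdgfc, whose product is the PDGFRα ligand that needs proteolysis, was at 4.0 to 5.50 FPKM in Has2_WT and 3.45, 4.94, 10.4 and 6.40 FPKM in Has2_TG, with a difference of 0.37 (-0.32 to 1.06, adjusted p = 0.749). Pdgfd, the PDGFRβ ligand that is activated by plasminogen activators of the urokinase type, was at 4.73 to 6.94 FPKM in Has2_WT and 6.44, 6.23, 6.25 and 12.0 FPKM in Has2_TG (0.39, -0.15 to 0.94, adjusted p = 0.654). The high values of Pdgfc and Pdgfd came from different libraries, Has2_TG3 and Has2_TG4. Pdgfa and Pdgfb each have an antisense neighbour on the same span, 6330403L08Rik at 1.56 FPKM and Gm41361 at 0.205 FPKM on average, and since the strand setting of the counting is not given in the sources used here, reads of the pairs cannot be told apart. Without the controls rich in B cell RNA the differences were -0.08 for Pdgfa, 0.22 for Pdgfc, 0.26 for Pdgfd and 0.08 for Pdgfrb, and none of these 4 passed.

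The second comparison set PH20_TG against PH20_WT. Pdgfrb and Pdgfb rose, no member fell, and the other 4 did not pass the test. Of the 12532 genes tested, 6.59% passed, 3.20% higher and 3.39% lower in PH20_TG, and no gene passed adjustment (smallest adjusted p = 0.506).

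Pdgfrb was at 10.3, 13, 10.8 and 13.7 FPKM in PH20_WT and at 18.9, 16.1, 15.2 and 15.8 FPKM in PH20_TG. Each PH20_TG library lay above each PH20_WT library, as was the case for 4.54% of all genes. The change of 0.47 (SE 0.14, 95% interval 0.16 to 0.78), or 1.38-fold, had a limma p of 0.00764 and an adjusted p of 0.664. Without the library labelled PH20_TG1 it was 0.40 and passed, and without PH20_WT1 and PH20_WT3, the controls rich in B cell RNA, it was 0.30 and did not pass. It did not pass either when each library's muscle marker level (0.43) or B cell marker level (0.27) was a covariate.

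Pdgfb was at 7.32, 11.3, 10.3 and 11.8 FPKM in PH20_WT and at 13, 11.6, 14.1 and 15.5 FPKM in PH20_TG, where PH20_TG2 lay just below PH20_WT4. The change of 0.42 (SE 0.18, 95% interval 0.02 to 0.82), or 1.34-fold, had a limma p of 0.0401 and an adjusted p of 0.731. The change no longer passed without PH20_WT1 (0.27), PH20_WT3 (0.44), the library labelled PH20_TG1 (0.44), PH20_TG3 (0.40) or PH20_TG4 (0.36), or without both controls rich in B cell RNA (0.22). As covariates, the muscle marker level gave 0.78, which passed, and the B cell marker level gave 0.16, which did not. Pdgfb had the largest mean share of the summed ligand FPKM in all 4 groups. It was 44.3 ± 4.0% in PH20_TG and 37.1 ± 5.01% in PH20_WT, with overlap, and 37.4% in Has2_TG and 31.2% in Has2_WT. These shares were not tested.

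Pdgfra did not separate the PH20 groups. It was at 10.4, 3.47, 6.47 and 7.16 FPKM in PH20_WT, whereas the PH20_TG libraries split into 2 high ones, at 11.7 and 11 FPKM in those labelled PH20_TG1 and PH20_TG4, and 2 low ones, at 1.77 and 4.58 FPKM in PH20_TG2 and PH20_TG3. The difference of -0.16 had a wide 95% interval, from -1.5 to 1.18 (adjusted p = 0.966), and it was 0.39 without PH20_TG2 and -0.50 without the library labelled PH20_TG1. The high pair was also the pair high in Has2. The log2 ratio of Pdgfra to Pdgfrb was -0.88 ± 0.78 in PH20_WT and -1.51 ± 1.20 in PH20_TG (exact permutation test, p = 0.486).

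The remaining ligands did not pass the test in the PH20 study. Pdgfa was at 3.36, 6.13, 3.77 and 4.62 FPKM in PH20_WT and 5.67, 6.51, 5.32 and 5.74 FPKM in PH20_TG, and PH20_WT2 was the 1 control within the range of PH20_TG. Its difference of 0.40 (-0.04 to 0.84) had an adjusted p of 0.731, and without PH20_WT2 it was 0.56 and passed, whereas it was 0.12 without the controls rich in B cell RNA and 0.098 with the B cell marker level as a covariate, and passed in neither. Pdgfd was at 7.85, 10.3, 7.64 and 7.77 FPKM in PH20_WT and 6.81, 6.84, 5.87 and 7.68 FPKM in PH20_TG, a difference of -0.29 (-0.63 to 0.04, adjusted p = 0.731). Pdgfc was at 3.68 to 5.25 FPKM in PH20_WT and 3.71 to 5.91 FPKM in PH20_TG, a difference of 0.01 (-0.42 to 0.45, adjusted p = 0.993). Without the controls rich in B cell RNA, Pdgfd had -0.40, Pdgfc 0.19 and Pdgfra 0.19, and without the library labelled PH20_TG1, Pdgfa had 0.41, Pdgfd -0.30 and Pdgfc -0.13, none of which passed.

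**Figure D2:**
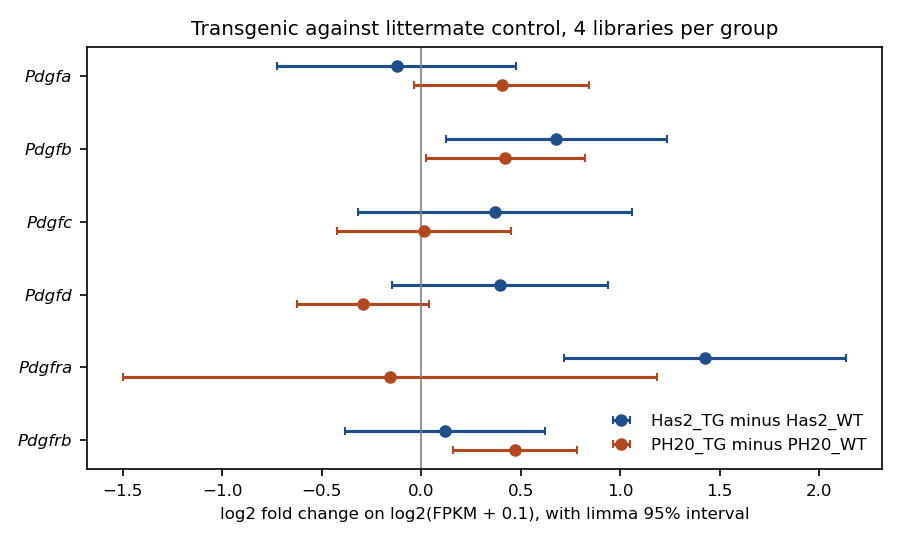
Log2 fold change on the log2(FPKM + 0.1) scale (x axis) of each PDGF gene (y axis) for Has2_TG minus Has2_WT (blue) and PH20_TG minus PH20_WT (brown), with 4 libraries per group and limma 95% intervals as bars. The intervals exclude 0 for Pdgfra and Pdgfb in the Has2 study and for Pdgfrb and Pdgfb in the PH20 study, and the interval of Pdgfra in the PH20 study is the widest.

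Whether the 2 transgenes differed in their effect was tested in a fit of all 16 libraries, in which 7.70% of 12593 genes had a limma p under 0.05 in either direction and no gene passed adjustment. The effect on Pdgfra was larger in the Has2 study than in the PH20 study by 1.58 (SE 0.72, 95% interval 0.06 to 3.11, adjusted p = 0.631), and that on Pdgfd by 0.69 (SE 0.29, 0.08 to 1.30, adjusted p = 0.613), and both passed the unadjusted threshold. The difference for Pdgfrb was -0.35 (-0.92 to 0.22, adjusted p = 0.794), for Pdgfb 0.26 (-0.41 to 0.92, adjusted p = 0.900), for Pdgfa -0.53 (-1.25 to 0.19, adjusted p = 0.738) and for Pdgfc 0.35 (-0.45 to 1.16, adjusted p = 0.878), so neither a shared nor a distinct response was shown for these 4. Without the 4 controls rich in B cell RNA, the difference was 1.41 for Pdgfra and 0.66 for Pdgfd, and neither passed. With 1 library left out, that for Pdgfra ranged from 1.03 to 1.92 and no longer passed without Has2_WT2, Has2_WT3, Has2_TG1, Has2_TG3, Has2_TG4, PH20_WT1, PH20_WT3, PH20_WT4, PH20_TG2 or PH20_TG3, the lowest value being that without PH20_TG2. That for Pdgfd no longer passed without Has2_WT2 (0.61), Has2_TG4 (0.46), PH20_WT2 (0.59) or PH20_TG3 (0.62).

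The 2 control groups, which share genotype class and diet, were compared in the same fit, where 10.3% of genes had a limma p under 0.05. Pdgfb was higher in PH20_WT than in Has2_WT by 0.58 (SE 0.22, adjusted p = 0.421), and Pdgfd by 0.56 (SE 0.20, adjusted p = 0.390), both past the unadjusted threshold. Pdgfra differed by 0.75 (-0.33 to 1.83, adjusted p = 0.622), and the differences of Pdgfa (-0.15), Pdgfc (-0.06) and Pdgfrb (0.00) did not pass. Without the 4 controls rich in B cell RNA the differences were 0.62 for Pdgfb and 0.53 for Pdgfd, and neither passed. Pdgfb no longer passed without Has2_WT1 (0.44), Has2_WT4 (0.50), PH20_WT2 (0.52) or PH20_WT4 (0.50), and Pdgfd without PH20_WT2 (0.46). By mean level, Pdgfra ran from Has2_WT (3.98 ± 1.47 FPKM) through PH20_WT (6.86 ± 2.83) and PH20_TG (7.27 ± 4.88) to Has2_TG (10.6 ± 3.39), and neighbouring groups in this order overlapped. Pdgfb ran from Has2_WT (6.91 ± 2.10 FPKM) through PH20_WT (10.2 ± 2.02) and Has2_TG (11 ± 2.59) to PH20_TG (13.5 ± 1.67), again with overlap between neighbours.

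Markers of the cells in which the receptors are known were set beside them. Of 12 adipocyte progenitor markers, 8 rose in Has2_TG and none fell, with a median of 1.38 against -0.03 over all genes. Examples were Dpp4 (1.77, adjusted p = 0.0576), Ly6a (1.31, adjusted p = 0.0576), which encodes Sca-1, and Mfap5 (1.45, adjusted p = 0.0687). The summed level of the 12 genes was 2018 to 3216 FPKM in Has2_WT and 3349 to 4722 FPKM in Has2_TG. Fewer or more cells of a type and less or more RNA per cell cannot be told apart in bulk tissue, and the part that progenitor number had in the Pdgfra change was not tested. Relative to the mean of these markers in the same library, Pdgfra was higher by 0.35 in Has2_TG, with overlap (-2.25 ± 0.23 against -2.60 ± 0.20, exact permutation test, p = 0.0857, adjusted p = 0.257). In the PH20 study 0 of 12 markers passed the test in limma (median -0.16) at a p under 0.05, with Lum at 0.74 (adjusted p = 0.731), Dpp4 at -1.53 (adjusted p = 0.807) and Pi16 at -1.70 (adjusted p = 0.810), and Pdgfra relative to them differed by 0.13 (exact permutation test, p = 0.83).

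Across libraries Pdgfra followed the mean log2 level of the progenitor markers, a list that does not hold Pdgfra. Group means were kept in these correlations with markers, here and for Pdgfrb and Pdgfb below. The values and their permutation p therefore also take in differences between groups. In the Has2 study Pdgfra and the marker level (4.02 to 4.94 in Has2_WT, 5.33 to 5.89 in Has2_TG) both separated the groups. Over all 16 libraries Pearson's r was 0.905 (permutation p = 2e-05, the smallest the permutations can give; adjusted p = 0.00018 over 9 relations) and Spearman's rho 0.891 (permutation p = 2e-05), and r was 0.950 without the 2 libraries farthest from the median of the marker level. Within the 8 libraries of the Has2 study r was 0.983 (permutation p = 0.000298, rho 0.952 with permutation p = 0.00114, r = 0.979 without the 2 farthest) and within those of the PH20 study 0.883 (permutation p = 0.00536, rho 0.833 with permutation p = 0.0154, r = 0.983 without the 2 farthest). The PH20_TG libraries low in Pdgfra, PH20_TG2 and PH20_TG3, were the lowest of the PH20 study in these markers, at 4.02 and 3.73, while those labelled PH20_TG1 and PH20_TG4 had 6.10 and 6.21. Over 16 libraries after removing group means, the genes most like Pdgfra of 12592 were Frmd6 (r = 0.988), Mmp2 (r = 0.974), a gelatinase, and Dcn (r = 0.953), the proteoglycan decorin, which is among the progenitor markers.

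Of 10 mural cell markers tested, 3 rose in PH20_TG and none fell, with a median of 0.46 against 0.01 over all genes. They were Higd1b (1.18, adjusted p = 0.664), a pericyte gene, the receptor Notch3 (0.54, adjusted p = 0.703) and Cspg4 (0.78, adjusted p = 0.709), which encodes NG2. Their list summed to 134.2 to 274.5 FPKM in PH20_WT and 220.2 to 354.4 FPKM in PH20_TG, and Pdgfrb relative to it differed by -0.07 (exact permutation test, p = 0.83). In Has2_TG 1 of the 10, the smooth muscle myosin Myh11, fell by 1.00 on the log2 scale (adjusted p = 0.0912), Cspg4 had -0.71 (adjusted p = 0.522) and Notch3 -0.41 (adjusted p = 0.562). The list's median there was -0.27, and Pdgfrb relative to the list differed by 0.18 (exact permutation test, p = 0.657). The correlation of Pdgfrb with these markers was 0.491 over 16 libraries (permutation p = 0.0545, adjusted p = 0.0700, rho 0.535 with permutation p = 0.0364, r = 0.455 without the 2 farthest libraries). It was 0.0480 within the Has2 study (permutation p = 0.923, rho -0.0952 with permutation p = 0.840, r = 0.482 without the 2 farthest) and 0.759 within the PH20 study (permutation p = 0.0263, rho 0.833 with permutation p = 0.0154, r = 0.634 without the 2 farthest). Pearson's r within the Has2 study thus changed when 2 libraries were left out, while rho over all 8 was -0.0952. Whether the studies differ in this correlation was not tested. After group means were removed, Spats2l (r = 0.920), Alms1 (r = 0.882) and Acbd3 (r = 0.871) were most like Pdgfrb.

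Endothelial cells are a known source of PDGF-B. Of 8 endothelial markers, 1 rose in each study, the angiopoietin receptor Tek in Has2_TG (1.27, adjusted p = 0.111) and Egfl7 in PH20_TG (0.54, adjusted p = 0.703), and the medians were 0.26 and 0.24. Of all genes, 10.0% and 6.59% passed in the 2 studies, and these shares also stand beside the full counts of the other lists. All 8 markers had a fold change above 0 in Has2_TG, whereas in PH20_TG 5 were above 0 and 3 below. Cldn5 had 0.64 (adjusted p = 0.554) and 0.55 (adjusted p = 0.731) in the 2 studies, Esam 0.26 (adjusted p = 0.737) in Has2_TG and Tie1 0.37 (adjusted p = 0.731) in PH20_TG. Over 16 libraries Pdgfb correlated with the markers at r = 0.765 (permutation p = 0.00184, adjusted p = 0.00552, rho 0.868 with permutation p = 6e-05, r = 0.641 without the 2 farthest libraries). It was 0.949 within the PH20 study (permutation p = 0.00248, rho 0.810 with permutation p = 0.0218, but r = 0.679 without the 2 farthest libraries) and 0.578 within the Has2 study, where it did not pass (permutation p = 0.136, rho 0.667 with permutation p = 0.0831, r = 0.460 without the 2 farthest). The gene most like Pdgfb after removing group means was Sox18 (r = 0.858), an endothelial transcription factor, followed by Slc43a1 (r = 0.849) and Tax1bp3 (r = 0.849). Platelets also store PDGF. Of 6 platelet genes only 2 had enough reads to be tested, while Gp1bb was at 0 in all libraries. In Has2_TG 1 of the 2 rose, Pf4 (0.81, adjusted p = 0.306), and the other had a fold change below 0. The mean log2 level of the list was 0.02 to 0.48 in Has2_TG, within the Has2_WT range of -0.22 to 0.80.

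**Figure D3:**
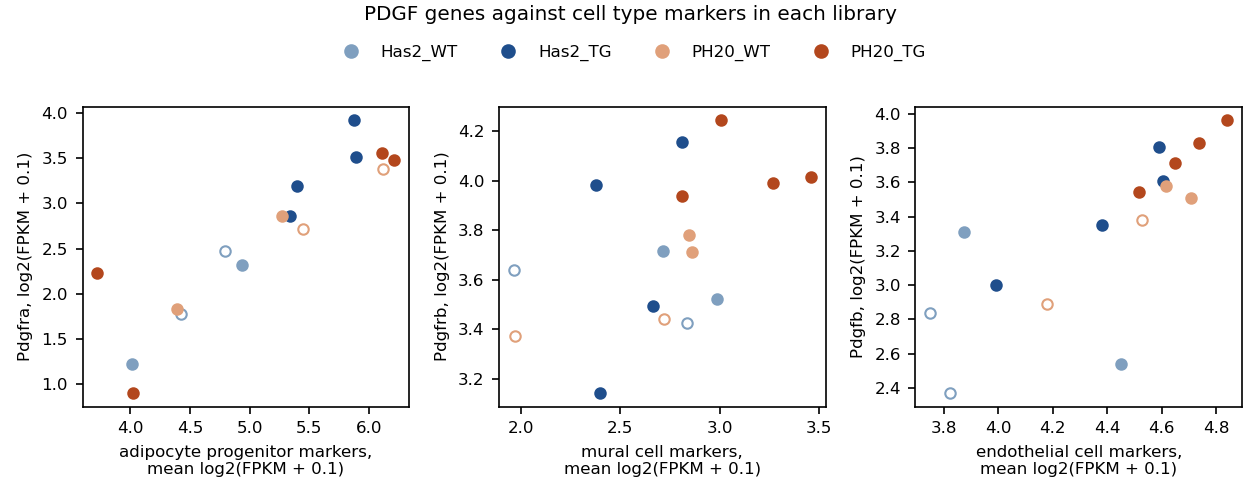
Level of Pdgfra, Pdgfrb and Pdgfb (y axes, log2(FPKM + 0.1)) against the mean level of progenitor, mural cell and endothelial markers (x axes, the same scale) in 16 libraries; each point is 1 library, coloured by group, and open points are the 4 controls rich in B cell RNA. Pdgfra was higher where its markers were higher in both studies (r = 0.905 over all libraries), and for Pdgfrb in the Has2 libraries r was 0.0480, or 0.482 without the 2 libraries farthest from the median of the markers.

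**Figure D4:**
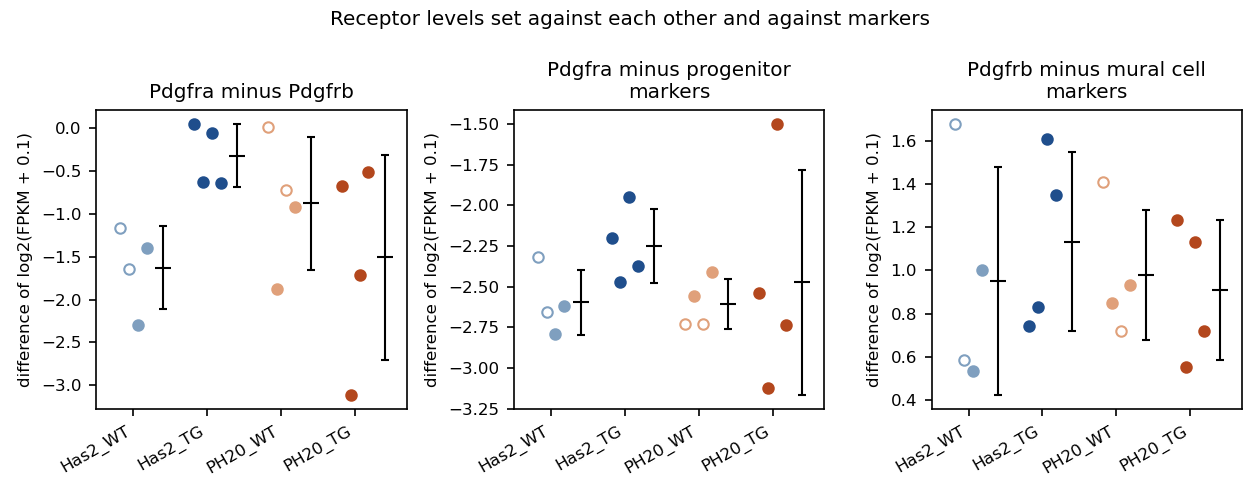
Pdgfra minus Pdgfrb, Pdgfra minus the progenitor markers and Pdgfrb minus the mural cell markers, each as a difference of log2(FPKM + 0.1) (y axes) by group (x axes); points are libraries, open points the 4 controls rich in B cell RNA, and bars mean and SD of 4 libraries. The Has2_TG libraries all lie above the Has2_WT libraries in the first panel only (means -0.32 and -1.63).

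Other cell types moved with the groups too. Of 8 macrophage markers, 6 rose in Has2_TG (median 0.82), their summed level being 318.0 to 637.9 FPKM in Has2_WT and 687.9 to 918.4 FPKM in Has2_TG, and 0 of 8 passed in limma in PH20_TG (median -0.56). Of 8 adipocyte markers, 0 passed in either study in limma (medians -0.02 and 0.25). Of the 9 skeletal muscle genes tested, 0 passed in Has2_TG and 9 fell in PH20_TG (median -4.32). The muscle-poor libraries Has2_TG3 and Has2_TG4 were both higher than Has2_TG1 and Has2_TG2 in every member but Pdgfd. With the muscle marker level as a covariate, Pdgfra (1.42) and Pdgfb (0.68) still passed the unadjusted threshold in the Has2 study. With the B cell marker level as a covariate, Pdgfra (1.59) passed there and Pdgfb (0.53) did not. B cell genes fell for 3 of 8 in Has2_TG and 4 of 8 in PH20_TG, T cell genes for 2 of 8 and 4 of 8, and lymph node stroma genes for 0 of 3 and 0 of 4 tested. When the controls rich in B cell RNA were left out, 0 B cell genes had enough reads to be tested in either study. T cell genes then passed for 0 of 1 tested in Has2_TG and 0 of 2 in PH20_TG. No epithelial marker of 7 had enough reads to be tested. Without the controls rich in B cell RNA, 9 of 12 progenitor and 3 of 8 macrophage markers rose in Has2_TG and 3 of 10 mural cell markers fell there. Of all genes, 9.59% passed in that setting. In PH20_TG without those controls, 1 of 10 mural cell and 1 of 12 progenitor markers rose and 0 of 8 endothelial markers passed in limma (4.52% of all genes did). Without the library labelled PH20_TG1, 3 of 10 mural cell and 2 of 8 endothelial markers rose, and 7 of 8 macrophage and 8 of 9 muscle genes fell. There, 9.35% of all genes passed. These shares also stand beside the counts without libraries for the lists below. The part these cells had in the PDGF results was not tested beyond the values given with covariates and without libraries.

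PDGF ligands are cut by furin-like convertases and, for PDGF-C and PDGF-D, by plasminogen activators, and several proteins bind them or their receptors. Of the 9 such genes tested, 5 rose in Has2_TG and none fell, with a median of 0.41. They were Plat (1.78, SE 0.36, adjusted p = 0.0841) and Plau (1.52, SE 0.37, adjusted p = 0.135), the tissue and urokinase plasminogen activators, the convertases Pcsk6 (0.78, adjusted p = 0.172) and Pcsk5 (0.60, adjusted p = 0.310), and the receptor Lrp1 (0.41, adjusted p = 0.488). Plat was at 3.0 ± 1.53 FPKM in Has2_WT and 10.1 ± 3.63 FPKM in Has2_TG, and Plau at 14.4 ± 6.42 and 40.6 ± 16.7 FPKM. In PH20_TG 2 of the 9 rose, Cspg4 (0.78, adjusted p = 0.709), which is also in the mural cell list, and Lrp1 (0.35, adjusted p = 0.722), with a median of 0.23, and Sparc, whose product binds PDGF-B, had 0.37 (adjusted p = 0.737). The effect on Plau (1.79, adjusted p = 0.613) and Pcsk6 (0.88, adjusted p = 0.613) was larger in the Has2 study, and that on Cspg4 (-1.49, adjusted p = 0.598) and Furin (-0.56, adjusted p = 0.613) was smaller there. Without the controls rich in B cell RNA, 3 of the 9 rose and 2 fell in Has2_TG, and 0 passed in limma in PH20_TG, where 1 rose without the library labelled PH20_TG1.

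Few of the transducers below the receptors passed the test. Of 38 genes, which include the Src kinases, phosphoinositide 3-kinase, the Ras pathway and adaptors, 1 rose and 1 fell in Has2_TG, where 10.0% of all genes passed. Mapk3 (ERK1) rose by 0.32 on the log2 scale in Has2_TG (adjusted p = 0.486), and Akt1 had 0.33 (adjusted p = 0.555). In PH20_TG the scaffold Slc9a3r2 rose by 0.55 (adjusted p = 0.731), whereas Akt1 had 0.32 (adjusted p = 0.731) and Cbl -0.38 (adjusted p = 0.731). The medians were 0.03 in both studies. In the PH20 study 1 of 38 passed, against 6.59% of all genes. Without the controls rich in B cell RNA, 1 rose and 3 fell in Has2_TG and 0 passed in limma in PH20_TG, and without the library labelled PH20_TG1 2 rose.

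Early response genes are induced within minutes by PDGF and by many other signals. Of 7 tested in the Has2 study, Fos rose (1.59, SE 0.37, adjusted p = 0.111), from 1.34 ± 0.67 to 4.21 ± 1.52 FPKM, while Egr1 had 1.10 (adjusted p = 0.611) and Ier2 0.57 (adjusted p = 0.668), and the list's median was 0.57. Of 9 tested in the PH20 study, Egr1 rose (1.76, SE 0.65, adjusted p = 0.703), from 4.45 ± 0.82 to 22.9 ± 22.4 FPKM, while Fos had 1.93 (adjusted p = 0.731) and Jun 0.44 (adjusted p = 0.740). All 9 had a fold change above 0 in PH20_TG (median 0.70), and the SDs of Egr1 and Fos in PH20_TG were nearly as large as their means (Fos 12.1 ± 11.9 FPKM). The mean log2 level of the list was 3.20 and 3.42 in the libraries labelled PH20_TG1 and PH20_TG4, the pair high in Has2. In PH20_TG2 and PH20_TG3 it was 1.46 and 1.60, within the PH20_WT range of 1.13 to 1.66. With the controls rich in B cell RNA left out, 4 of 7 rose in Has2_TG and 0 of 9 passed in limma in PH20_TG, as was the case there without the library labelled PH20_TG1.

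The PDGF family belongs with the VEGFs, and its receptors with those of Csf1, Kit ligand and Flt3 ligand. Of 15 relatives tested, 3 rose in Has2_TG and none fell, with a median of 0.23. These were Csf1 (0.96, SE 0.20, adjusted p = 0.0841), the macrophage growth factor, its receptor Csf1r (0.72, adjusted p = 0.443), which is also in the macrophage list, and the lymphatic factor Vegfc (1.10, adjusted p = 0.432). In PH20_TG 1 rose, the Csf1r ligand Il34 (0.57, adjusted p = 0.722), with a median of -0.04, while Vegfa had 0.52 (adjusted p = 0.736) and Flt3 -1.32 (adjusted p = 0.745). When the controls rich in B cell RNA were left out, 2 of 14 tested rose in Has2_TG and 0 of 14 passed in limma in PH20_TG, and without the library labelled PH20_TG1 1 of 15 rose and 1 fell.

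**Figure D5:**
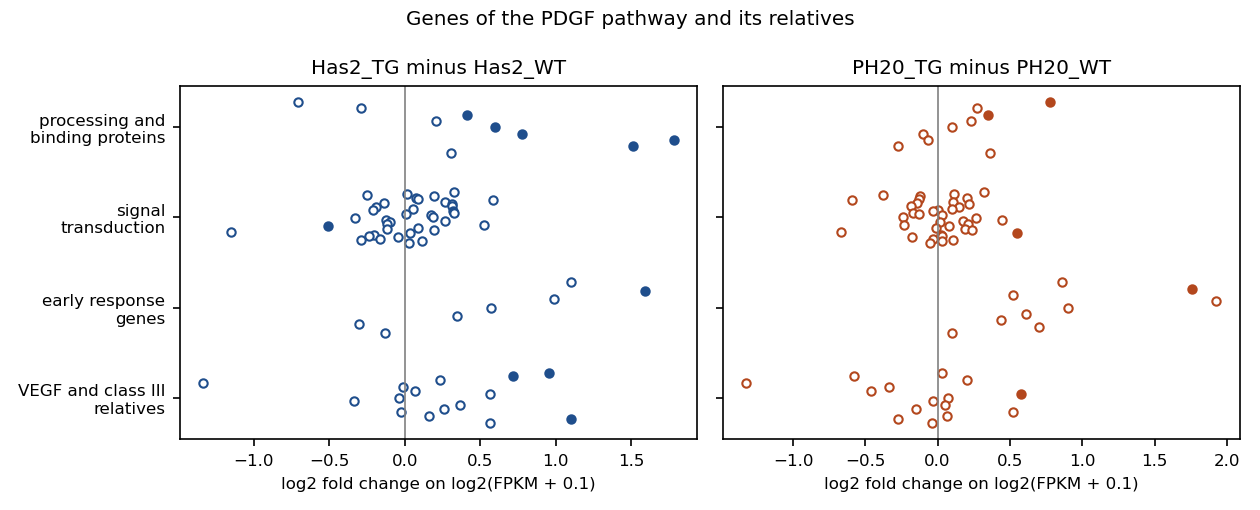
Log2 fold change on the log2(FPKM + 0.1) scale (x axes) of the genes of 4 lists around the PDGF family (y axis) in the Has2 study (left) and the PH20 study (right), 1 point a gene, filled where the limma p is under 0.05. The processing and binding proteins hold 5 filled points in the Has2 study and 2 in the PH20 study, and few of the 38 signal transduction genes are filled.

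Within the family, after group means were removed, Pdgfa and Pdgfrb were the most alike pair over the 16 libraries (r = 0.771), followed by Pdgfc and Pdgfrb (r = 0.624) and Pdgfd and Pdgfrb (r = 0.601). Pdgfra was not close to any ligand but Pdgfc (r = 0.503) and had r = 0.230 with Pdgfrb. These correlations are descriptions over libraries that share depth and tissue composition. The genes most like the other ligands were Vstm4 (r = 0.930), Nagk (r = 0.870) and Rtp3 (r = 0.857) for Pdgfa, Ascc2 (r = 0.942), Arhgdia (r = 0.913) and Htra1 (r = 0.908) for Pdgfc, and Fbxo7 (r = 0.789), Ino80c (r = 0.764) and Eif4e (r = 0.754) for Pdgfd.

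Because Pdgfra and Pdgfd were the members that passed the unadjusted test of a difference between the studies, the 250 bases before their RefSeq transcript starts are shown, both on the + strand of GRCm38.p6, 5′ to 3′, with motif matches in capitals. The Pdgfra stretch is chr5:75152001-75152250 and that of Pdgfd is chr9:6168236-6168485. The deposited table places the genes at chr5:75152292-75198215 and chr9:6168584-6378850 on GRCm38. Both stretches are upstream of the annotated first exon.
Pdgfra: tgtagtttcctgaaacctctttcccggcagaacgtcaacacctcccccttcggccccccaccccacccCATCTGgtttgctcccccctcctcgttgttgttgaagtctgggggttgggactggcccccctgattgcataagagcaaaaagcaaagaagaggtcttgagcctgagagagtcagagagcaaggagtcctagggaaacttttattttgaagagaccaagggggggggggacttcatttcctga
Pdgfd: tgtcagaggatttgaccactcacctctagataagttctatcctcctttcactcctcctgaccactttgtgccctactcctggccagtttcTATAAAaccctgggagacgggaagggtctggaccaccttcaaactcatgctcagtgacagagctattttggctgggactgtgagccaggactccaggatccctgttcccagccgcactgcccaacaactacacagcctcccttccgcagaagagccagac
The motifs searched on both strands were the GC box GGGCGG, the CCAAT box, the TATA box TATAAA, the AP-1 site TGANTCA, the TEAD site GGAATG and the E-box CANNTG, and no matches overlapped. The Pdgfra stretch held 1 E-box, 182 bases before the start, and the Pdgfd stretch 1 TATA box letter string, 160 bases before it. Of 32851 promoters of this length, 66.2% held the E-box, 12.4% TATAAA, 32.7% GGGCGG, 33.8% CCAAT, 6.75% TGANTCA and 12.6% GGAATG, so the E-box match is common among promoters. Their G and C content was 54.4% and 53.6%, against a median of 52.4%.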

How the data were processed

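The authors mapped reads to GRCm38 with STAR (2.7.9a), counted reads per gene with STAR and deposited FPKM per gene and library with gene length; how FPKM was scaled is not given in the sources used here. Whole reads could be recovered for 100% of values (tolerance 0.01), and served for the filter and for voom. DESeq2, which the authors used, was not run here. Members and gene lists were chosen with earlier results of these data known. Genes named are the 6 members, up to 3 genes of each list with the smallest p in each study, the 3 genes most like each member by Pearson's r, and Has2 and Spam1; Pcsk5, Lrp1, Furin and the genes given for the difference of effects were added after their values were seen. A result for 1 gene of the signal transduction list is not reported here.

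Each study was tested on its 8 libraries with limma (3.58.1, R 4.3.3) on log2(FPKM + 0.1), with a variance trend, leaving out genes whose mean was under 50 reads. A fit of 16 libraries gave the difference of effects and the control comparison. Ratios were tested by exact permutation (scipy 1.17.1), two-sided. Fold changes on this scale understate those of low genes. Procedures were tested on simulated data. Promoters came from RefSeq (GRCm38.p6), which matched 4 of the 6 members. Alternatives were other pseudocounts, filters, scalings, weights, covariates, a replicate block and leaving out libraries; leaving out the 4 controls rich in B cell RNA, and the list counts without libraries, were chosen after seeing the data. Depth was 14421692 to 26751729 reads per library, and p-values and intervals carry no more than 4 libraries per group.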

Additional observations from a re-analysis of the deposited data

Results flagged for a closer look

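Pdgfd stood out in 2 libraries. In Has2_TG4 it was at 12.0 FPKM while the other 3 Has2_TG libraries had 6.23 to 6.44 FPKM, and in PH20_WT2 it was at 10.3 FPKM while the other 3 PH20_WT libraries had 7.64 to 7.85 FPKM. Both were flagged by Dixon's test within their group of 4, which was run on 36 groups and flags about 1 in 20 by chance. Without Has2_TG4 the Pdgfd change in the Has2 study was 0.16, and without PH20_WT2 that in the PH20 study was -0.19.

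The effects of the 2 transgenes differed for Pdgfra, by 1.58, and for Pdgfd, by 0.69, in the limma test of the difference (adjusted p = 0.631 and 0.613). The difference for Pdgfd was 0.46 without Has2_TG4 and 0.59 without PH20_WT2, the libraries named above, and passed in neither case. That for Pdgfra ranged from 1.03 to 1.92 when each library was left out in turn, and did not pass in 10 of these 16 fits. Without the 4 controls rich in B cell RNA it was 1.41 and did not pass.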

How the results depend on the processing

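Pdgfra in the Has2 study passed the unadjusted limma threshold under all 19 alternatives (1.18 to 1.60, p from 0.000577 to 0.0129, adjusted p from 0.0687 to 0.338). Pdgfb passed in 13 of 19 in the Has2 study and 9 of 19 in the PH20 study, and Pdgfrb in 16 of 19 in the PH20 study. Causes of the changes below were not tested.

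Of the 6 members, 1 was called in the Has2 study when the B cell marker level was a covariate and 1 without the 4 lymph node rich controls, against 2. With that covariate 715 of 12606 genes were higher and 456 lower, against 788 and 473 in the main fit. Without those controls 9.59% of all genes passed, against 10.0%. In the PH20 study 1 was called with quantile normalization, without a variance trend, in 1 fit of all 16 libraries or with the muscle score, and 0 with the B cell score or without those controls, which was also the number for the difference between the studies and for the controls without them. Of 12532 genes, 401 were higher and 425 lower in the main PH20 fit. These counts were 460 and 360 with quantile normalization, 381 and 451 without a trend, and 333 and 292 with all 16 libraries. They were 188 and 103 with the muscle score, and 417 and 310 with the B cell score. Without the lymph node rich controls 4.52% of all genes passed, against 6.59%. For the difference without them, 288 of 12269 genes were higher and 416 lower. Pdgfra in the PH20 study turned to 0.56 with the muscle score, 0.22 with the B cell score and 0.19 without those controls. Pdgfc there was -0.014 with voom and -0.12 with the muscle score. Between controls Pdgfrb was -0.0065 with voom and Pdgfa 0.18 without the lymph node rich libraries.

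The Pdgfra to Pdgfrb difference in the Has2 study was 1.52 without those controls (exact permutation p = 0.133, the smallest 4 against 2 can give), and 1.08 to 1.46 without each library in turn, where 0.0571 is the smallest p. In the PH20 study Pdgfra relative to the marker median was -0.049, and Pdgfrb relative to mural markers was 0.022 with a pseudocount of 1 and 0.017 without those controls; leaving out each library gave -0.19 to 0.35 and -0.18 to 0.074.

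Genes called with no minimum of reads were 800 lower in the Has2 study, 736 higher in the PH20 study, 888 lower in the difference and 933 higher in PH20_WT. In the PH20 study 188 genes were higher and 103 lower with the muscle score, and 245 were lower without the lymph node rich controls. Without them 288 were higher in the difference, and 357 higher and 425 lower in the control comparison. Leaving out each library in turn gave 619 to 880 higher and 329 to 592 lower genes in the Has2 study, 283 to 559 and 279 to 655 in the PH20 study, 322 to 759 and 315 to 611 in the difference, and 399 to 697 and 458 to 912 between controls. The members called were then 1 to 2 in the Has2 study, 1 to 3 in the PH20 study, 0 to 2 in the difference and 0 to 2 between controls. Values turned sign within -0.25 to 0.15 (Pdgfa) and -0.035 to 0.30 (Pdgfrb) in the Has2 study, -0.13 to 0.11 (Pdgfc) and -0.50 to 0.39 (Pdgfra) in the PH20 study, and -0.15 to 0.039 (Pdgfc) and -0.067 to 0.069 (Pdgfrb) between controls.

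Deviations of same-numbered libraries from their group means correlated at -0.18 to 0.13 in the Has2 study and, in the PH20 study, at 0.35 and 0.42 for numbers 1 and 2 and -0.03 and -0.04 for numbers 3 and 4. Since not every pair was above 0.1, the numbers were not taken as pairs. With the replicate block 633 genes were higher and 669 lower in the PH20 study, and Pdgfa passed there (0.40, adjusted p = 0.470, within 0.470 to 1.00 over its alternatives); it changed no other call of a member.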
